A study of Homo sapiens with 4 samples.

Results

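SOX2, FABP7, S100B and SPARCL1 are 4 genes used as markers of neural stem cells and of astroglia, and they were measured here in the ATOH1 lineage derived from human pluripotent stem cells at day in vitro (DIV) 28. SOX2 is an HMG-box transcription factor that holds neural progenitors in an undifferentiated state. FABP7 is the brain-type fatty acid binding protein of radial glia, S100B is a calcium-binding protein of astrocytes and of other glia such as Schwann cells, and SPARCL1 is a secreted matricellular protein made by astrocytes and by cells of blood vessels. In the developing cerebellum, ATOH1-positive progenitors of the rhombic lip give rise to the excitatory neurons, granule cells included, while Bergmann glia, which keep SOX2 and FABP7, and other astrocytes come mainly from the ventricular zone. The 4 genes were set by name, with no threshold on their values, but with earlier results of these libraries known. All 4 could be found among 1650 genes to which a name could be given, out of 43863 genes and single transcripts tested.

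The cells were RUES2, a human embryonic stem cell line, carrying the lentiviral ATOH1-EGFP-L10a transgene, in which an EGFP-tagged ribosomal subunit is driven by a human ATOH1 enhancer. They had been differentiated towards the granule cell lineage with SB431542, LDN-193189, CHIR99021, FGF2, BMP7 and BDNF under puromycin, and cycloheximide was added before lysis; these conditions were common to every library. Translating ribosome affinity purification (TRAP) pulled down the tagged ribosomes, and the mRNA bound to them was sequenced as 3 IP libraries, 1 from each of 3 independent differentiations. They were compared with 1 input library, which the study elsewhere calls unbound. The lines were clonal selections, so these libraries cannot speak for other lines.

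Which library is the input is not settled by the deposit. The sample labelled input has a title with the tag T113, but the file with that tag was deposited under a sample labelled IP, and the file with the sample labelled input carries the IP tag T106. The library tagged T113 was taken as the input. Only with this library in that place could genes be matched to the study's own gene table (1641 genes, against 0 with each of the other 3). Levels are given in TPM, in which reads are scaled to transcript length and to library size. ATOH1, whose enhancer drives the tag, was at 37.8, 50.6 and 44.1 TPM in IP replicates 1, 2 and 3 and at 0.304 TPM, or 7 reads, in the library taken as input. With the samples and files as GEO pairs them, no gene or transcript passed the test and 3 of the 4 genes turned direction, and those values are given beside each gene. The IPs held 34603230, 36860319 and 37719839 estimated counts, and the input held 41173019.

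The direction of the difference split the 4 genes into pairs. SOX2 was higher in the ATOH1-TRAP IPs than in the input and SPARCL1 was lower, and both differences passed edgeR's quasi-likelihood test. FABP7 lay above the input in 3 of 3 IPs and S100B below it in 3 of 3, but neither passed. Over all genes and transcripts the test called 2.30% higher and 1.48% lower, or 3.78% in either direction. Among the 1650 named genes it called 29.6% higher and 27.0% lower, or 56.7% in all. These genes were named through a part of the study's table that holds only genes the study had called on these same libraries, so that 2 of 4 passing is close to the share among named genes and is no result about the 4. For the same reason their direction is not independent evidence. The study made its calls with DESeq2, so a DESeq2 call on any of the 4 was largely fixed in advance.

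**Figure D1:**
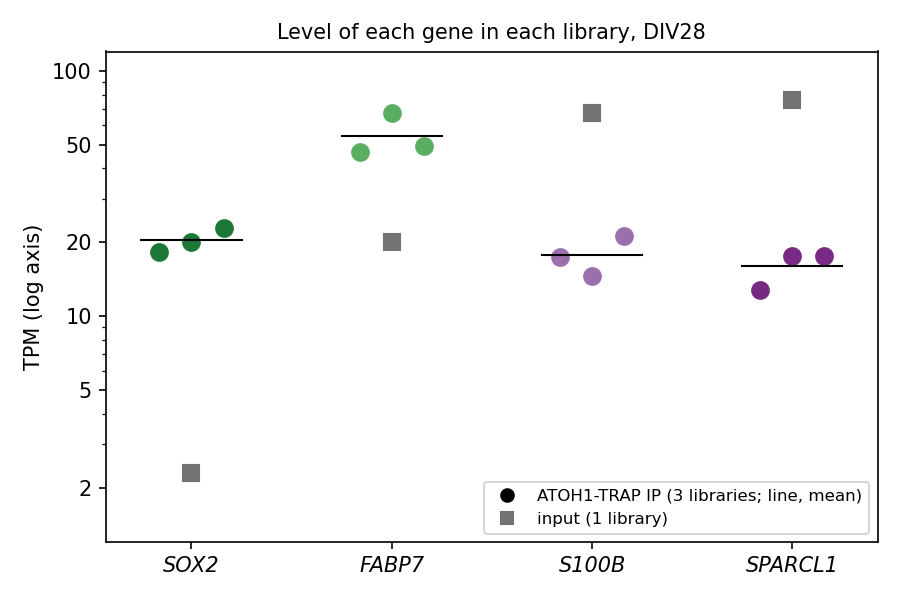
TPM on a log axis (vertical) of SOX2, FABP7, S100B and SPARCL1 (horizontal) in 3 ATOH1-TRAP IP libraries (circles, with their mean as a line) and 1 input library (squares). SOX2 and FABP7 lie above their input in each IP, and S100B and SPARCL1 below theirs.

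SOX2 showed the widest gap between IP and input. It stood at 18.3, 20.0 and 22.9 TPM in IP replicates 1, 2 and 3 and at 2.30 TPM in the input. All 3 IPs were high, and the lowest was 7.96 times the input. The IP to input ratio in TPM averaged 8.87 ± 0.998 (SD, n = 3), with the same single input value under each ratio. These values rest on 1257, 1460 and 1765 reads in the IPs and on 147 in the input. On CPM, the read count scaled to library size alone, the mean IP level was 11.2 times the input. Its 95% interval of 9.56 to 13.3 covers only the counting error of the input. The log2 fold change was 3.49 (standard error 0.31, edgeR adjusted p = 0.0293). The IPs varied by a coefficient of variation of 15.7% where counting alone gives 2.59%.

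The call on SOX2 needed all 4 libraries and did not hold in limma-voom. The fits that lost it called no gene or transcript at all, so the loss is not particular to SOX2. DESeq2 also called SOX2 (log2 fold change 3.45), with 13.2% of all those tested called higher. SOX2 was named through the study's own DESeq2 calls, so this adds no support. Without IP replicate 1, 2 or 3 the log2 fold change was 3.59, 3.49 or 3.35, with edgeR adjusted p of 0.155, 0.195 and 0.107, and limma-voom gave 3.48 with an adjusted p of 0.0755. With the GEO pairing of samples and files it was -0.21 (standard error 1.36).

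FABP7 was the most abundant of the 4 genes in each IP. Its level was 46.5, 67.2 and 49.4 TPM in IP replicates 1, 2 and 3, against 20.1 TPM in the input. All 3 IPs lay above the input, with ratios of 2.31, 3.35 and 2.46, a mean of 2.71 ± 0.559 (SD, n = 3). Of all genes and transcripts tested, 28.2% likewise had their 3 IPs above the input in CPM. Of the 1650 named genes, 850 had a positive log2 fold change. Reads for FABP7 numbered 1080, 1655 and 1289, against 442 for the input. On the count scale the log2 fold change was 1.75 (standard error 0.32), with an unadjusted p of 0.00444 and an adjusted p of 0.0711 from edgeR. The adjusted p crossed the threshold of 0.05 when only genes and transcripts with at least 50 counts in 2 libraries were tested (0.042 in edgeR) and in DESeq2 (4.34e-07), where 6.73% and 13.2% of all those tested were called higher (10.9% and 22.3% in either direction). FABP7 was named through the study's own DESeq2 calls, so the DESeq2 call here adds no support. The GEO pairing gave a log2 fold change of 0.00.

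S100B lay on the other side of the input. It was measured at 17.4, 14.6 and 21.2 TPM in IP replicates 1, 2 and 3, and at 67.7 TPM in the input. The input exceeded the IPs by 3.88, 4.63 and 3.2 times, and no IP came near it. Of all genes and transcripts tested, 33.4% likewise had their 3 IPs below the input in CPM. Of the 1650 named genes, 800 had a negative log2 fold change. Reads behind the S100B levels were 472, 417 and 645, with 1699 for the input. The log2 fold change was -1.59 (standard error 0.30), with an unadjusted p of 0.00502 and an adjusted p of 0.075 from edgeR. As for FABP7, the filter of 50 counts (adjusted p = 0.0457 in edgeR) and DESeq2 (9.39e-06) put it past the threshold, with 4.13% and 9.11% of all those tested called lower. The DESeq2 call on S100B adds no support either, for the reason given for FABP7. With the GEO pairing the log2 fold change turned to 0.84 (standard error 0.89).

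SPARCL1 was the most abundant of the 4 in the input. It reached 12.8, 17.5 and 17.5 TPM in IP replicates 1, 2 and 3, against 76.2 TPM in the input. The input was 5.97, 4.35 and 4.35 times as high, so that replicate 1 lay farthest below it. It had 1034, 1509 and 1591 IP reads and 5728 input reads, the last the highest input count of the 4. The log2 fold change was -1.91 (standard error 0.25, edgeR adjusted p = 0.0425). Leaving out IP replicate 1, 2 or 3 gave -1.75, -1.99 or -2.03 with edgeR adjusted p of 0.155, 0.2 and 0.111, and limma-voom gave -1.93 with an adjusted p of 0.0695. As for SOX2, these fits called no gene or transcript at all, so the lost call is not particular to SPARCL1. DESeq2 also called SPARCL1 (log2 fold change -1.95), with 9.11% of all those tested called lower. As for SOX2, the DESeq2 call adds no support. The GEO pairing turned the log2 fold change to 1.38 (standard error 0.96).

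These are bulk libraries, in which fewer cells of a type and less RNA per cell cannot be told apart. The pull-down itself and the tagged lineage cannot be told apart either, since each IP differs from the input in both. The spread behind each p comes from the IPs alone, on the assumption that an input would vary as much. An exact one-sided permutation test of 3 libraries against 1 cannot give a p below 0.25. Scaling also matters to the size, because the median log2 fold change over all genes and transcripts was 0.099 on counts and -0.33 for the ratio of mean TPM, over 39213 of them. The TPM ratios of the 4 genes were lower by a similar amount, at 3.15, 1.44, -1.93 and -2.26 on the log2 scale for SOX2, FABP7, S100B and SPARCL1.

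Ratios between genes within a library do not depend on how libraries are scaled to each other. In TPM, SOX2 was 1.43, 1.14 and 1.30 times SPARCL1 in IP replicates 1, 2 and 3, but 0.0301 times SPARCL1 in the input. SOX2 relative to S100B was 1.05, 1.37 and 1.08 in the IPs against 0.0340 in the input. FABP7 relative to S100B was 2.67, 4.60 and 2.33, against 0.297. These pairs take 1 gene from each side, so every IP ratio had to lie above that of the input. They restate the directions given above and are no further evidence for them. Within the pairs the picture was different. S100B relative to SPARCL1 was 1.36, 0.834 and 1.21 in the IPs, and the input value of 0.888 lay within that range. SOX2 relative to FABP7 was 0.394, 0.298 and 0.463 in the IPs against 0.114 in the input, so SOX2 differed from the input by more than FABP7 did in each IP.

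The order of the levels changed accordingly. FABP7 was first and SOX2 second in all 3 IPs. The third place went to S100B in replicates 1 and 3 and to SPARCL1 in replicate 2, so these 2 genes did not differ beyond their spread. The ranges of SOX2 and S100B over the IPs overlapped as well, whereas the lowest FABP7 value in the IPs lay above every IP value of the other 3 genes. In the input the order was SPARCL1, S100B, FABP7 and SOX2. The 4 genes summed to 95, 119 and 111 TPM in the IPs against 166 TPM in the input. FABP7 made up 48.9%, 56.3% and 44.5% of this sum in IP replicates 1, 2 and 3 and 12.1% in the input, while SOX2 made up 19.3%, 16.8% and 20.6% against 1.38%. S100B and SPARCL1 held 40.7% and 45.8% of the input sum.

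**Figure D2:**
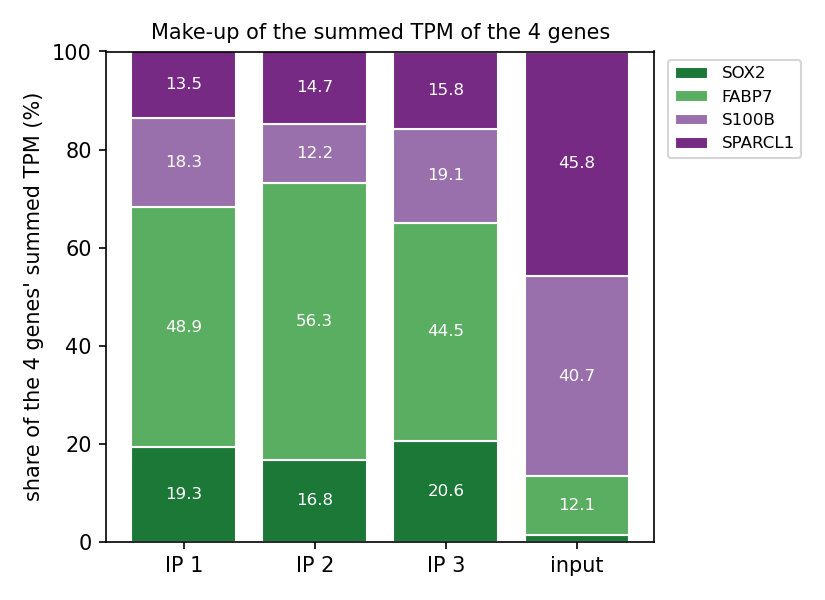
Share of the summed TPM of the 4 genes, in percent (vertical), in each of the 3 IP libraries and the input (horizontal), stacked by gene. FABP7 is the largest share in each IP and SPARCL1 in the input, where SOX2 is the thin lowest band (1.38%).

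Set among the 1650 named genes, none of the 4 was at an extreme. SOX2 ranked 84 from the top by log2 fold change and FABP7 ranked 294, of 850 with a positive value. SPARCL1 ranked 160 from the bottom and S100B ranked 273, of 800 with a negative value. In level, SOX2 stood above 39.6%, 42.2% and 47.6% of the named genes in TPM in IP replicates 1, 2 and 3 and above 8.67% in the input. SPARCL1 stood above 31.3%, 39.1% and 41.2% in the IPs against 63.4% in the input.

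The genes differ in structure, and the reads were assigned to transcripts of hg19 (GRCh37). SOX2 lies on chromosome 3 at 181429713 to 181432224 on the plus strand, a gene of 1 exon with 951 coding bases. It lies inside the long noncoding gene SOX2-OT on the same strand, and the library kit does not mark strand. The single SOX2 transcript quantified (2512 bases) spans that exon, so reads of an unspliced SOX2-OT RNA across it could not be told apart from SOX2. FABP7 lies on chromosome 6 at 123100861 to 123105219 on the plus strand, with 4 exons and 396 coding bases. S100B lies on chromosome 21 at 48018517 to 48025121 on the minus strand, with 3 exons and 276 coding bases. SPARCL1 lies on chromosome 4 at 88394487 to 88452213 on the minus strand, with 11 exons and 1992 coding bases. No other annotated gene overlaps the last 3.

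For each of the 3 genes with several transcripts, 1 transcript held most reads in every library. Of FABP7 the 999-base transcript held 97.5%, 97.6% and 97.5% of reads in IP replicates 1, 2 and 3 and 95.5% in the input. Its longer transcript of 4148 bases held 2.5% (95% exact interval 1.65% to 3.62%), 2.3% (1.63% to 3.14%) and 2.4% (1.64% to 3.4%) in the IPs. In the input it held 4.52% (2.79% to 6.90%), on 20 reads. Every IP share lay below that of the input, but the intervals overlap, and the difference was not tested. The FABP7 values above thus rest almost wholly on its short transcript.

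The minor transcripts of S100B and SPARCL1 varied among the IPs by more than counting error. For S100B, the 1229-base transcript held 7.84% of reads in IP replicate 1, 0 of 417 reads in replicate 2, which allows a share of up to 0.719%, and 8.22% in replicate 3. The input value was 3.0%, inside that range. For SPARCL1, the 3006-base transcript held 10.3%, 18.8% and 1.45% of reads in the IPs against 2.92% in the input. The main SPARCL1 transcript of 2904 bases was at 88.7%, 80.4% and 96.4% in the IPs against 96.2% in the input. For neither gene do these libraries show a choice of transcript that goes with the pull-down. The transcripts of a gene share most of their sequence, and the quantifier divides the shared reads by estimate, which the intervals do not cover.

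**Figure D3:**
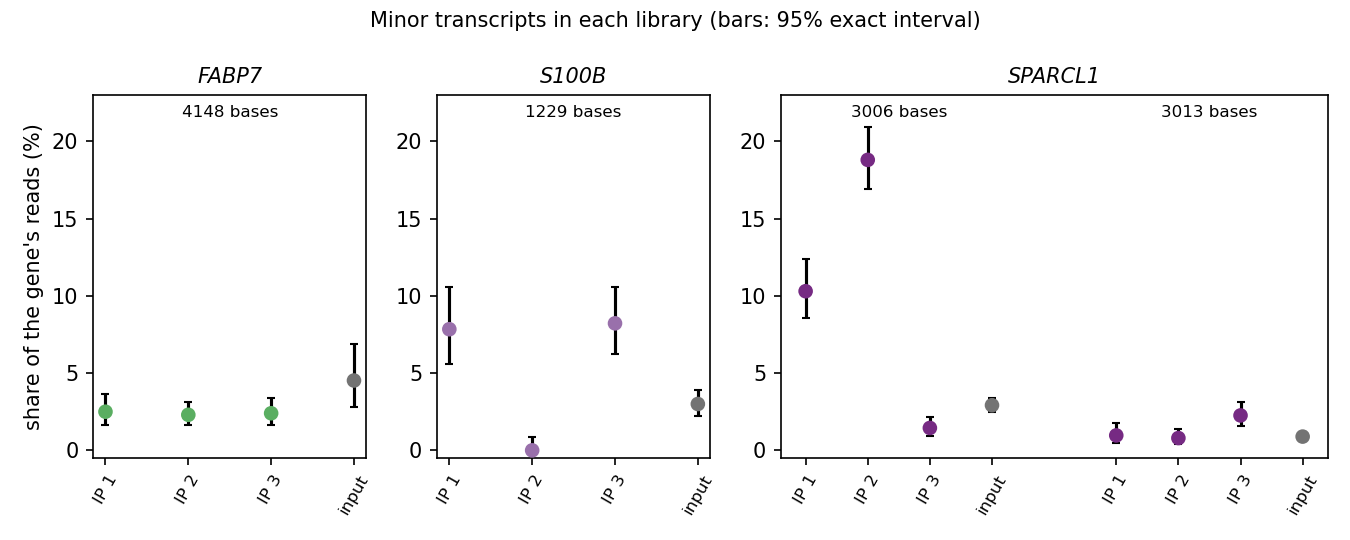
Share of a gene's reads, in percent (vertical), held by each minor transcript of FABP7, S100B and SPARCL1 in 3 IP libraries and the input (grey), with 95% exact intervals for counting error. The 3006-base SPARCL1 transcript runs from 1.45% to 18.8% among the IPs.

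The start regions of 3 of the 4 genes are shown, because the set of start regions used held none for S100B. Each is the 250 bases before the gene's start in RefSeq on GRCh38.p14, at chr3:181711675-181711924 (plus strand) for SOX2, chr6:122779466-122779715 (plus strand) for FABP7 and chr4:87529377-87529626 (minus strand) for SPARCL1. Capitals mark ACAAAG (letters of a SOX factor motif), CCAAT (those of the CAAT box, also as ATTGG on the other strand) and TATAAA (those of the TATA box).
SOX2: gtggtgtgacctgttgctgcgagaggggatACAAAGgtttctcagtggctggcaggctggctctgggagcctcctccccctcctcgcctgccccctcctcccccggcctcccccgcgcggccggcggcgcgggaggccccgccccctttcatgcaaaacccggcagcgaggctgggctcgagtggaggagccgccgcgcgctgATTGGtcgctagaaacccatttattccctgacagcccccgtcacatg
FABP7: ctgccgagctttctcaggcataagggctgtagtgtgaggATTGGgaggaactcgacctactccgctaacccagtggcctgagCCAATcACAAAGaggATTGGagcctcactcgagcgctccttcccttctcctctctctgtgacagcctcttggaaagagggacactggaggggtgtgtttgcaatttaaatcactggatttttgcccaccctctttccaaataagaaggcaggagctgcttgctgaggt
SPARCL1: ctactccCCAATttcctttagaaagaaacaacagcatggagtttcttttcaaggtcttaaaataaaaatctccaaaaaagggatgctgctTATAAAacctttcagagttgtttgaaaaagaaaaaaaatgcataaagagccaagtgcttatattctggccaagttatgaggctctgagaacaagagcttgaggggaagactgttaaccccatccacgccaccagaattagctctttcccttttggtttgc

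ACAAAG occurred in the SOX2 window, 220 to 215 bases before the start, and in the FABP7 window, 162 to 157 bases before it. It was not among the letters of the SPARCL1 window. ACAAAG or ACAATG, on either strand, was present in 21.2% of 35116 RefSeq windows of this length, so a match is common. CCAAT was found in all 3 windows, at 3 places in that of FABP7, and in 32% of all windows. TATAAA was found only in that of SPARCL1, 160 to 155 bases before the start, and in 10.7% of all windows. This is a match of letters, and whether it serves this start was not tested. TGGGAA (an RBPJ motif, 20.8% of all windows) and CAGCTG (an E-box, 14%) were in none of the 3. The GC content was 68.8% for SOX2, 52.8% for FABP7 and 38.8% for SPARCL1, with a median of 58% over all windows. The motifs were picked after the sequences had been seen, and no binding was measured here.

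Of 28 listed genes of the stem cell and radial glial programme, 11 could be named, of which 4 were called higher, 3 lower and 4 did not pass (median log2 fold change 1.75, against 0.815 over the named genes). These counts are close to the 29.6% higher and 27.0% lower among all named genes, so they are no result about the programme. Beside SOX2, the higher genes were the Notch effectors HES4 (log2 fold change 2.80) and HES5 and the membrane protein TTYH1 (1.81). HES5 was at 12.5, 9.60 and 7.51 TPM in the IPs (400, 327 and 271 reads) against 0.0335 TPM in the input. That input level is 1 read, at the floor, so the size of the HES5 gap is poorly known. Lower were SOX9 (-1.81), a factor of gliogenic progenitors, PROM1 (-2.0), the stem cell surface protein CD133, and the matrix glycoprotein TNC (-2.57). SOX9 stood at 25.1, 26.1 and 29.4 TPM in the IPs against 119 TPM in the input, the opposite side from SOX2. The RNA-binding protein MSI1 (1.85, edgeR adjusted p = 0.0537), LIX1 (1.19, 0.0533) and the receptor NOTCH3 (-0.93, 0.132) did not pass, nor did FABP7.

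Of 28 listed astroglial genes, 5 could be named, with 2 called higher, 2 lower and 1 not passing (median log2 fold change -0.81). Beside the 29.6% and 27.0% of named genes called higher and lower, a count over 5 genes shows nothing particular to astroglia. The extracellular chaperone CLU, also known as apolipoprotein J, was higher (1.03), with 51.0, 52.2 and 49.2 TPM in the IPs against 31.3 TPM in the input. EDNRB, an endothelin receptor found on astroglia and on neural crest cells, was higher too (1.40). TIMP3, an inhibitor of metalloproteinases that many cell types make, was lower (-0.81), as was SPARCL1, and S100B did not pass. GFAP, AQP4 and ALDH1L1, which define mature astrocytes, could not be named and were not analysed here. With 11 and 5 genes named, chosen through the study's own calls, neither list shows how the rest of its programme behaved.

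**Figure D4:**
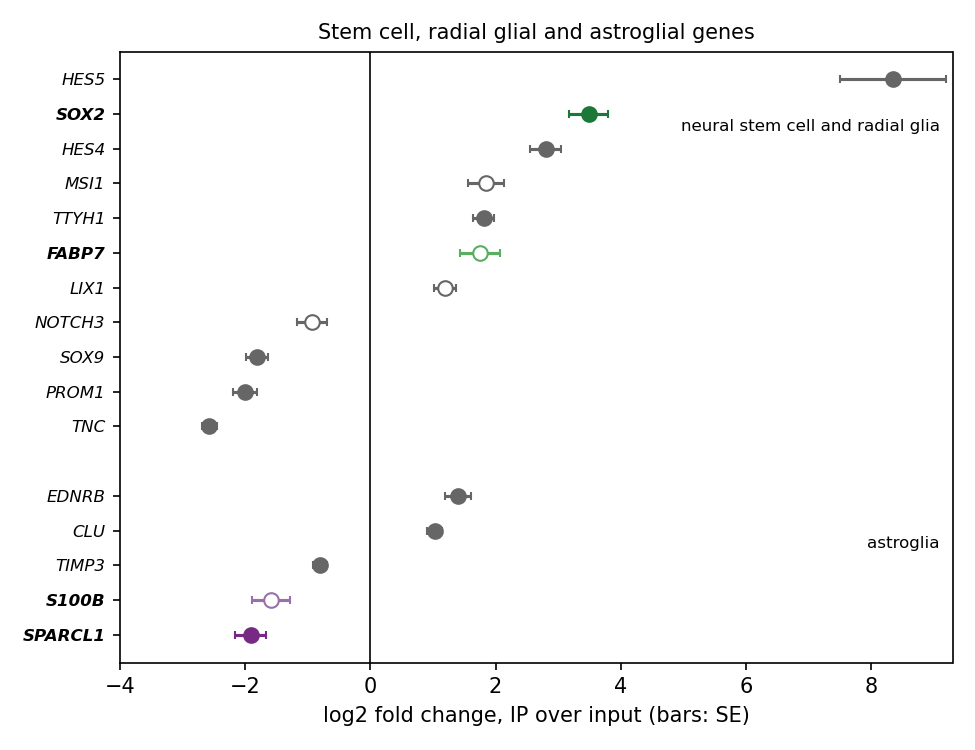
Log2 fold change of IP over input (horizontal; bars, standard error; 3 IP and 1 input libraries) for the named genes of the stem cell and radial glial list and the astroglial list (vertical). Filled points passed edgeR's test at adjusted p under 0.05 and open points did not; SOX2 and SOX9, and CLU and SPARCL1, lie on opposite sides of 0.

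Markers of other cells that could hold these transcripts moved as well. S100B is also a gene of Schwann cells and melanocytes, and of 13 neural crest, Schwann cell and melanocyte genes 2 could be named, the melanosome protein PMEL (2.85, higher) and the neurotrophin receptor NGFR (1.10, edgeR adjusted p = 0.057). Their summed level was 185 to 217 CPM in the IPs against 57.0 CPM in the input, the opposite side from S100B. SPARCL1 is made by vascular cells, and 3 of 14 endothelial genes could be named. Their sum was 203 to 260 CPM in the IPs against 1009 CPM in the input, mainly through ADGRL4 (-3.38, lower), while the tight junction gene CLDN5 was higher (5.12) and ENG did not pass (-1.06, adjusted p = 0.077 in edgeR). Of 13 mesenchymal and pericyte genes 3 could be named, and they summed to 1767 to 1878 CPM in the IPs against 3389 CPM in the input. In this list collagen COL1A1 was lower (-1.46), TAGLN was higher (1.07) and DCN did not pass (-1.42). CSPG4, a proteoglycan of oligodendrocyte precursors and pericytes and the only one of 10 oligodendrocyte lineage genes named, was lower (-3.13). SOX2 is also a gene of pluripotent cells, for which 1 of 8 genes could be named, LIN28A, at 6.75, 7.04 and 3.79 TPM in the IPs against 0.813 TPM in the input (3.01, edgeR adjusted p = 0.062). Of 12 young neuron genes 10 could be named, 9 were higher and none lower (29.6% of the named genes and 2.30% of all genes and transcripts tested were called higher), with sums of 1892 to 2204 CPM in the IPs against 609 CPM in the input. The part of any of these cells in the levels of the 4 genes was not tested.

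The named genes with profiles most like each of the 4 were found by the root mean square difference in centred log2(CPM + 1) over the 4 libraries, among 1538 genes with a mean of at least 10 CPM. For SOX2 they were RASD2 and HOXA10 (both 0.15) and TNNI1 (0.21). For FABP7 they were IL11RA (0.055), PLXDC1 (0.060) and MFRP (0.076). S100B was closest to PYGB (0.051), TOR1AIP1 (0.055) and FAM198B (0.071), and SPARCL1 to LRIG2 (0.032), DLX1 (0.047) and IDE (0.067). With 4 libraries, such a profile is mostly the difference between IP and input, and the neighbours had log2 fold changes near that of their gene (3.55 for RASD2, 1.69 for IL11RA, -1.55 for PYGB and -1.99 for LRIG2). The distances for SOX2 were larger than for the other 3.

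**Figure D5:**
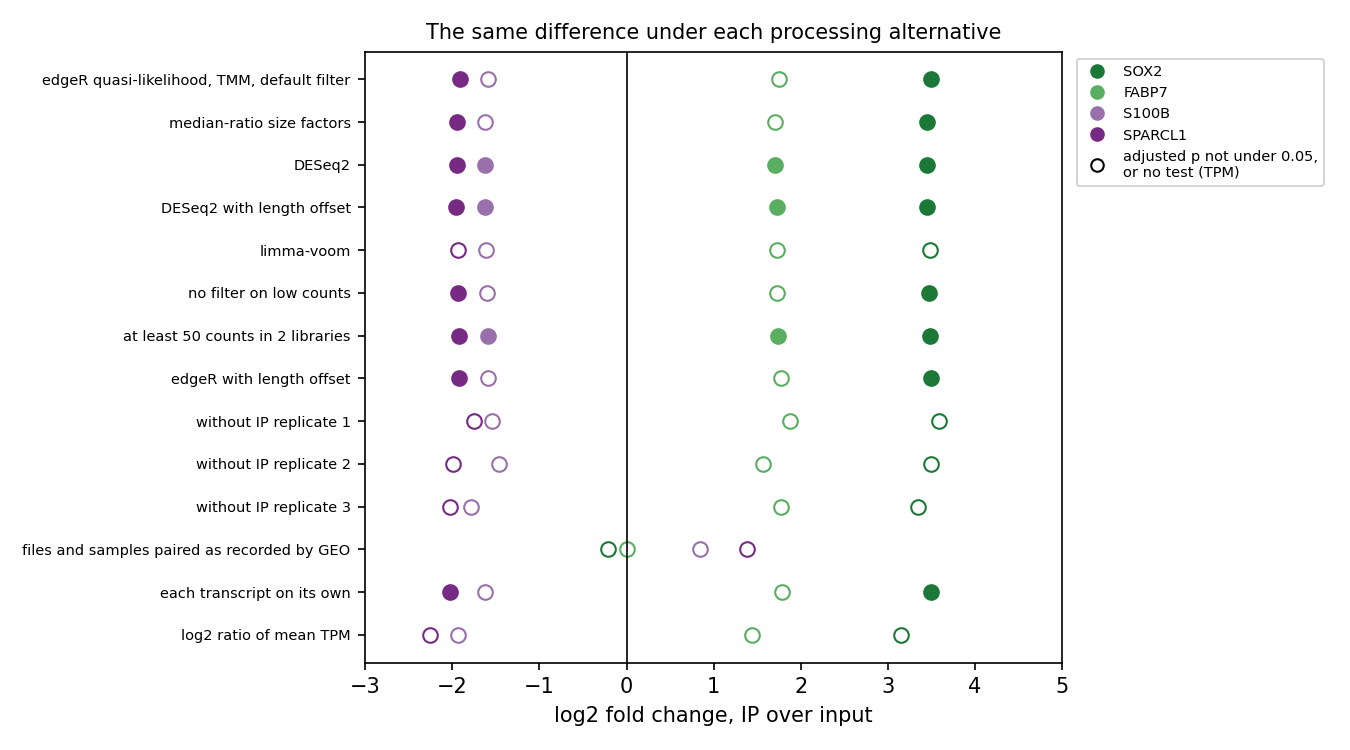
Log2 fold change of IP over input (horizontal) for the 4 genes under each way of processing the counts (vertical), filled where the adjusted p was under 0.05. Of the alternatives shown, only the pairing of files and samples as GEO records it moves points across 0, for SOX2, S100B and SPARCL1, with FABP7 at 0.00.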

How the data were processed

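The deposited files hold 1 library each, with the estimated counts and the TPM that the authors obtained with Salmon 0.8.2 for 69548 UCSC transcripts of hg19, from unstranded single reads of amplified full-length cDNA. The study lists DESeq2 1.20.0 for its own gene table. The mean, log2 fold change and standard error of 1998 of its genes were read here, and served only to give names. The deposited files name no genes. Each gene of that table was therefore sought as the sum of up to 20 adjacent transcripts that came within 2% of its mean and within 1e-05 of its log2 fold change (within 1e-04 where the mean was within 0.1%). This matched 1682 genes, of which 28 with several matches and 4 sharing a transcript were left out. SOX2 rests on 1 transcript, FABP7 and S100B on 2 each and SPARCL1 on 3.

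Joined genes were summed and every other transcript was kept alone. The estimated counts were rounded and tested with edgeR 4.0.16 in R 4.3.3 (TMM, minimum count 10, quasi-likelihood test, no covariate, Benjamini-Hochberg over all 43863, threshold 0.05), after the functions had been tested on simulated data. TPM were summed over transcripts. Depth was 34603230 to 37719839 estimated counts per IP and 41173019 for the input. Intervals are 95%, cover counting error only, and a count of 0 allows 3. The interval of the IP to input ratio covers the counting error of the input alone. The test was repeated with DESeq2 1.42.0 and limma-voom (limma 3.58.1), with median-ratio scaling, other filters, length offsets, leaving out each IP, the GEO pairing, transcripts alone, and TPM in place of counts.

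The 4 genes and the 12 gene lists were chosen with earlier results of these data known. The genes named are the 4, ATOH1, the joined genes of the stem cell, astroglial, oligodendrocyte and family lists, up to 4 of each other list, and the 3 closest profiles of each of the 4. A family member that this rule allows, and the counts of its list, are not reported here.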

Additional observations from a re-analysis of the deposited data

How the results depend on the processing

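The direction of SOX2, FABP7, S100B and SPARCL1 held under every alternative except the GEO pairing of samples and files, where SOX2 was at -0.21, S100B at 0.84 and SPARCL1 at 1.38 (log2 fold change), FABP7 was at 0.00, and no gene or transcript was called (0 higher and 0 lower, though 1036 and 229 had an unadjusted p under 0.05 in edgeR). DESeq2 without and with a length offset put FABP7 (1.70 and 1.73) and S100B (-1.63 in both) past the threshold, and so did the filter of 50 counts in 2 libraries (1.74 and -1.59). All 4 genes were named through the study's DESeq2 calls, so passing in DESeq2 was largely fixed in advance. In limma-voom SOX2 was at 3.48 and SPARCL1 at -1.93, and neither passed. Without 1 IP library the log2 fold change ran from 3.35 to 3.59 for SOX2, 1.56 to 1.87 for FABP7, -1.79 to -1.47 for S100B and -2.03 to -1.75 for SPARCL1, and none passed. The log2 ratios of mean TPM, which have no test, were 3.15, 1.44, -1.93 and -2.26 in that order. The stricter filter tests fewer genes and transcripts, and each fit without an IP has 1 library less. The cause of these differences was not tested.

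The count called higher was 1008 and the count lower 651. DESeq2 called 5800 and 3995, DESeq2 with a length offset 5816 and 4012, and the 50-count filter 1870 and 1148. The calls numbered 0 in either direction in limma-voom, where 3797 positive and 6415 negative values had an unadjusted p under 0.05, and in edgeR without each IP library, where that p gave 3583 to 4279 higher and 3132 to 3677 lower. Of the 11 named stem cell and radial glial genes, DESeq2 with or without the offset called 7 higher and 4 lower. The 50-count filter called 7 higher and 3 lower. Over all those tested, DESeq2 called 13.2% higher and 9.11% lower, and the filter 6.73% and 4.13%. The 11 were named through the study's DESeq2 calls, so these counts are no result about the programme. For this list limma-voom, the GEO pairing and the fits without 1 IP called 0 higher and 0 lower. In the astroglial list, median-ratio scaling called 1 higher, the fit with no filter 1 higher and 1 lower, and limma-voom, the GEO pairing and the fits without 1 IP 0 in either direction.

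No paired analysis was possible because the 3 IP libraries stand against 1 input library. Depth limits SOX2 most, whose input level rests on 147 reads.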

Other observations

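The named genes of the SOX and SPARC families lay on both sides of the input, while the relatives of FABP7 given here lay above it. Of all named genes, 29.6% were called higher and 27.0% lower, so calls on so few genes are no result about a family. Of the SOX family, 4 of 18 listed genes were named. SOX11, a factor of young neurons, was called higher with SOX2, at 30.6, 34.2 and 29.7 TPM in the IPs against 11.0 TPM in the input (log2 fold change 1.85). SOX9 was called lower, and SOX5 did not pass (-1.29, edgeR adjusted p = 0.0558). Among the relatives of FABP7, the intracellular lipid binding proteins, CRABP1, FABP3 and CRABP2 were called higher. The retinoic acid binding protein CRABP1 was the most abundant of these, at 10500, 12050 and 10440 TPM in the IPs against 748 TPM in the input (4.21), followed in log2 fold change by FABP3 (1.80) and CRABP2 (0.93).

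Of 8 listed genes of the SPARC family 4 were named. SPARCL1 and SPOCK1 (-1.69) were called lower. The related matricellular genes SMOC1 (3.24, edgeR adjusted p = 0.0506) and SMOC2 (-1.86, 0.0519) lay on opposite sides of the input and did not pass. SMOC1 was at 4.04, 5.82 and 4.01 TPM in the IPs against 0.616 TPM in the input, and SMOC2 at 11.2, 12.2 and 16.3 TPM against 61. Of 10 S100 genes only S100B was named.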
